A study of Homo sapiens with 25 samples.

Results

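Jurkat cells held for 3 days in medium with 12.5% histidine were compared with Jurkat cells held for 3 days in medium with 25% histidine, by RNA sequencing of 3 libraries per level. The 6 libraries were chosen by their labels alone and are 6 of the 25 in the study. The remaining libraries came from 100%, 50% and 0% histidine on day 3, and from 100%, 50%, 25% and 12.5% on day 6, with 3 libraries per group except 2 at 100% on day 3 and 2 at 12.5% on day 6. Jurkat is an established human T-cell leukemia line with the surface phenotype of a cortical thymocyte, and every group is this 1 line with no agent other than the histidine level named in the labels. The labels give histidine as a percentage and no concentration, so 25% is the reference level here and is itself a restricted medium. Nothing in the labels says that the 3 libraries of a level came from separate cultures. The p-values rest on the spread among libraries of the same group, estimated over all 25 libraries together. They cover no more than that spread, part or all of which may be technical.

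Histidine is an essential amino acid for human cells. When its supply falls, uncharged tRNA for histidine can activate the kinase GCN2, which phosphorylates the initiation factor eIF2 alpha, lowers general translation and favours the translation of ATF4, a transcription factor for amino acid transport and synthesis genes. Separately, cycling cells switch on a wave of mitotic genes in G2 and M phase, under the MuvB complex with B-MYB and FOXM1, after the E2F-driven wave of G1/S genes. Immature T cells express the recombination genes RAG1, RAG2 and DNTT, whose products cut and diversify the antigen receptor genes.

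Of 22994 genes tested, 1889 (8.22%) changed between 12.5% and 25% histidine at an adjusted p under 0.05 in limma. Of these, 1243 (5.41% of genes tested) were higher at 12.5% and 646 (2.81%) were lower, against 4843 genes with an unadjusted p under 0.05. The values are the authors' normalized counts, and differences are given as log2(value + 1) at 12.5% minus that at 25%. At low values this scale shrinks a change. The rises were small, with a median size of 0.34 on the log2 scale and 46 genes over 2-fold, whereas the falls had a median size of 0.62 and 173 genes over 2-fold. The 2 sets differ in level: 1183 of the 1243 rises had a mean of at least 200 in 1 of the 2 groups, against 419 of the 646 falls. The sizes were not compared at matched levels. The median over all tested genes was -0.0041. Libraries of the 2 levels did not overlap for 1235 of the 1243 higher genes and 629 of the 646 lower genes, while 14.9% of all tested genes lay higher at 12.5% without overlap and 11.4% lower, 26.3% together.

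The split between rises and falls depended on the scaling of the libraries. The deposited values summed to 20758545 to 20860393 per library at 12.5% and 19333910 to 19861840 at 25%. When each library was scaled to the same sum, the median of all genes moved to -0.09, and 583 genes were higher and 1066 lower. After quantile normalization 616 were higher and 616 lower, so that the higher share of changed genes was 65.8%, 35.35% and 50.0% under the 3 scalings. Under all 3 scalings, 492 genes were called higher and 437 lower. With the library's number in the labels, taken modulo 8, as a term in the fit, 238 genes changed, 156 of them higher and 82 lower; 155 and 77 of these were also called, in the same direction, without the term. With the term, 2742 genes had an unadjusted p under 0.05. Transcripts typical of other tissues recurred with this numbering: over the 25 libraries the globin gene HBA2 was at 1384 to 2176 where the number leaves 3, 4 or 5 on division by 8, and at most 194.3 elsewhere. The 12.5% libraries carry numbers 9 to 11 and the 25% libraries 6 to 8, so the levels share no remainder.

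**Figure D1:**
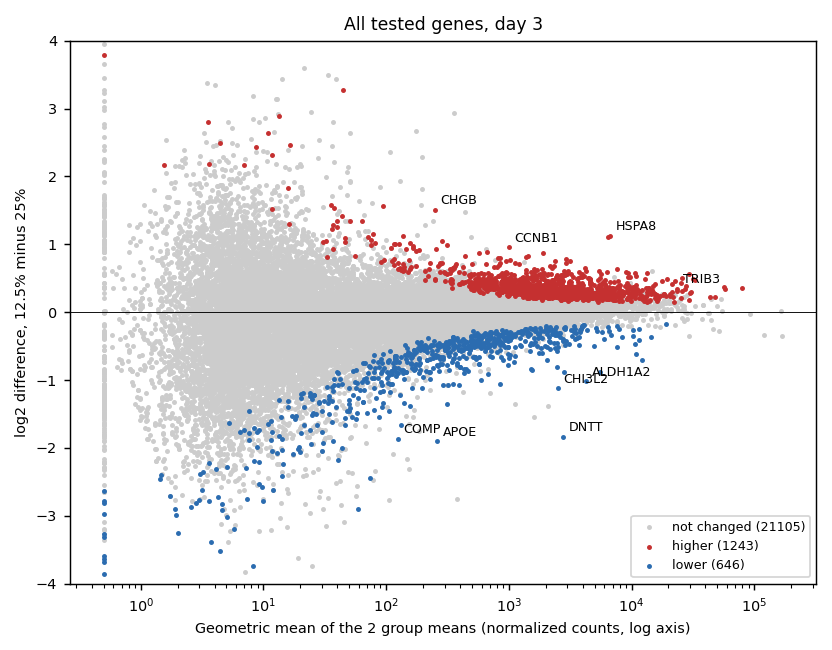
Difference between 12.5% and 25% histidine on day 3 (log2 difference, y axis) against the geometric mean of the 2 group means (normalized counts, log axis, values under 0.5 drawn at 0.5) for all 22994 tested genes. The 1243 higher genes in red lie mostly within 1 log2 unit of 0, the 646 lower genes in blue reach further down, and 9 genes beyond 4 log2 units, 5 of them changed, are not drawn.

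The libraries carried T-cell markers, though not every member of the T-lineage list was high. CD3E, a CD3 chain of the T-cell receptor complex, ranged from 23290 to 24930 normalized counts at 12.5% and from 19040 to 20100 at 25%. Low members of that list over the 6 libraries were IL7R (8.805 to 32.67), LMO2 (0 to 18.6) and CD28 (18.51 to 60.31). The B-cell marker MS4A1 was at most 2.913 in all 6 libraries, and the epithelial marker EPCAM, the myeloid marker MPO and the cardiac muscle marker TNNT2 were at 0 in all 6. Other members of the same marker lists were present in all 6 libraries: the B-cell marker CD79A at 531.5 to 655.2, the epithelial keratin KRT8 at 96.06 to 189.1 and the myeloid marker LYZ at 109.2 to 219. Mitochondrial transcripts made up 2.234% to 3.316% of the total at 12.5% and 2.822% to 4.563% at 25%. The median standard deviation of log2 values among the 3 libraries was 0.096 at 12.5% and 0.091 at 25%, over 10113 genes with a mean of at least 200.

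Mitotic genes were higher at 12.5% than at 25%. The 4 lists of mitotic genes held 120 tested genes, of which 60 rose and 0 fell in limma. At an unadjusted p under 0.05, 81 were higher and 0 lower. Among cyclins, cyclin-dependent kinases and mitotic kinases 18 of 30 rose (median of the list 0.43), and among mitotic kinesins and spindle assembly factors 21 of 32 rose (median 0.43). In the kinetochore and spindle checkpoint list 14 of 37 rose (median 0.25), and in chromosome condensation and cohesion 7 of 21 rose (median 0.18). Under total-sum scaling 17, 19, 9 and 5 members of these lists rose, in that order, and with library number modulo 8 in the fit 10, 9, 3 and 3 rose, with 0 lower in each case. With that term, 70 of the 120 were higher and 0 lower at an unadjusted p under 0.05. In bulk RNA, fewer cells of a kind and less RNA per cell cannot be told apart.

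CCNB1 (chr5:69167010-69178245, plus strand, GRCh38), which encodes cyclin B1, the partner that activates CDK1 at mitotic entry, stood at 1501, 1470.0 and 1198 normalized counts in the 12.5% libraries and at 644, 695 and 811 in the 25% libraries. Every 12.5% library lay above every 25% library. The means were 1389.6 ± 167 and 717 ± 85.4 (SD, n = 3 each), a 1.94-fold rise (0.95 on the log2 scale, SE 0.117, limma adjusted p = 6.85e-06). PLK1 (chr16:23677656-23690367, plus strand), the polo-like kinase that drives centrosome maturation and spindle assembly, was at 5139.9, 5193 and 5348 against 3374, 3154 and 3428, again with no overlap (log2 difference 0.66, SE 0.0721, limma adjusted p = 1.52e-06). CDC20, the activator of the anaphase-promoting complex, was at 3943, 3948 and 4276 against 2570.5, 2284 and 2386 (log2 difference 0.75, limma adjusted p = 1.79e-07). The lowest 12.5% library lay well above the highest 25% library for both PLK1 and CDC20. Other members of that list that rose were CCNA2 (0.60), the catalytic kinase CDK1 (0.54), the securin gene PTTG1 (0.72), the ubiquitin-conjugating enzyme UBE2C (0.56) and the transcription factors FOXM1 (0.60) and MYBL2 (0.35), all as log2 differences.

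The kinesins divided between motors of the midzone, of the kinetochore and of the spindle poles, and members of each class rose. KIF20A, a midzone motor needed for cytokinesis, was at 1506, 1522 and 1643 in the 12.5% libraries and 878, 1008 and 964 in the 25% libraries (0.71 on the log2 scale, SE 0.089, limma adjusted p = 8.36e-06). KIF2C, the microtubule depolymerase that corrects faulty kinetochore attachments, was at 3761, 3355 and 3604 against 2418, 2328 and 2494 (0.57, SE 0.0695, limma adjusted p = 6.85e-06). The levels did not overlap for either motor. TPX2, which activates Aurora A on spindle microtubules, was at 10520.5, 10583 and 10650.0 against 7970.0, 7570.1 and 7980.2 (log2 difference 0.43). KIF4A (0.50), KIF18A (0.50), the bipolar spindle motor KIF11 (0.42), ASPM (0.49) and NUSAP1 (0.51) rose as well, so that the log2 rises of named kinesins lay between 0.42 and 0.71.

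Of the chromosomal passenger complex, which senses tension at kinetochores, BIRC5 (survivin) was at 4627, 4416 and 4647 at 12.5% and 3067, 2749 and 3293 at 25% (log2 difference 0.59, limma adjusted p = 6.85e-06). Its partners CDCA8 (0.58) and INCENP (0.25) also rose. CENPF, an outer kinetochore protein, was at 5365, 5389 and 5181 against 3588, 3986 and 3663 (log2 difference 0.51). All 3 of the 12.5% libraries exceeded all 3 of the 25% libraries for both BIRC5 and CENPF. Among condensation and cohesion genes, the cohesin protector CDCA5 (sororin) rose by 0.51, the condensin subunit NCAPD2 by 0.35 and topoisomerase TOP2A by 0.36 on the log2 scale. TOP2A was at 11506, 11888 and 11259 against 8994, 9018 and 9026. MKI67, the proliferation marker that coats mitotic chromosomes, was at 17813, 15758 and 17570.4 against 12493, 13007 and 13783 (log2 difference 0.38, limma adjusted p = 0.00318), a call that was lost under quantile normalization and with library number modulo 8 in the fit.

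Of 50 genes for G1/S transition and DNA replication, 3 rose (6%) and 2 fell (4%), near the shares of all tested genes, 5.41% and 2.81%, with a median of 0.06. At an unadjusted p under 0.05, 12 were higher and 4 lower. Without overlap, 19 of the 50 were higher and 4 lower, against 14.9% and 11.4% of all tested genes, so by this measure rises were in excess. Total-sum scaling gave 1 rise and 3 falls. The DNA ligase LIG1 (0.37), the polymerase alpha subunit POLA2 (0.35) and RPA2 (0.27) rose, and the replication kinase CDC7 fell by 0.30 on the log2 scale. The CDC7 call was lost in 5 of 16 settings, among them library number modulo 8 and leaving out single libraries. CCND2, the G1 cyclin D2, was at 377, 399 and 490.1 at 12.5% and at 898, 940.2 and 704 at 25%, so that no 12.5% library reached the lowest 25% library (a 2-fold fall, limma adjusted p = 5.36e-05). The CCND2 call was lost with library number modulo 8 in the fit. Of 30 homologous recombination and Fanconi repair genes, FANCI rose (0.26) and XRCC2 fell (-0.32), and the list's median was -0.001. The FANCI call was lost in 7 of 16 settings and the XRCC2 call in 8 of 16, among them library number modulo 8, where 0 of the 30 changed (2 higher and 2 lower at an unadjusted p under 0.05). Of 18 enzymes of deoxynucleotide and pyrimidine supply 4 rose and 1 fell (median 0.19), with the thymidylate kinase DTYMK at 0.62 and thymidine kinase TK1 at 0.49. Of 18 tested replication-dependent histone genes, whose messages mostly lack poly(A) tails, H2AC6 (0.93) and H2BC5 (1.11) rose. Both calls were lost with library number modulo 8 in the fit and when single libraries were left out.

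**Figure D2:**
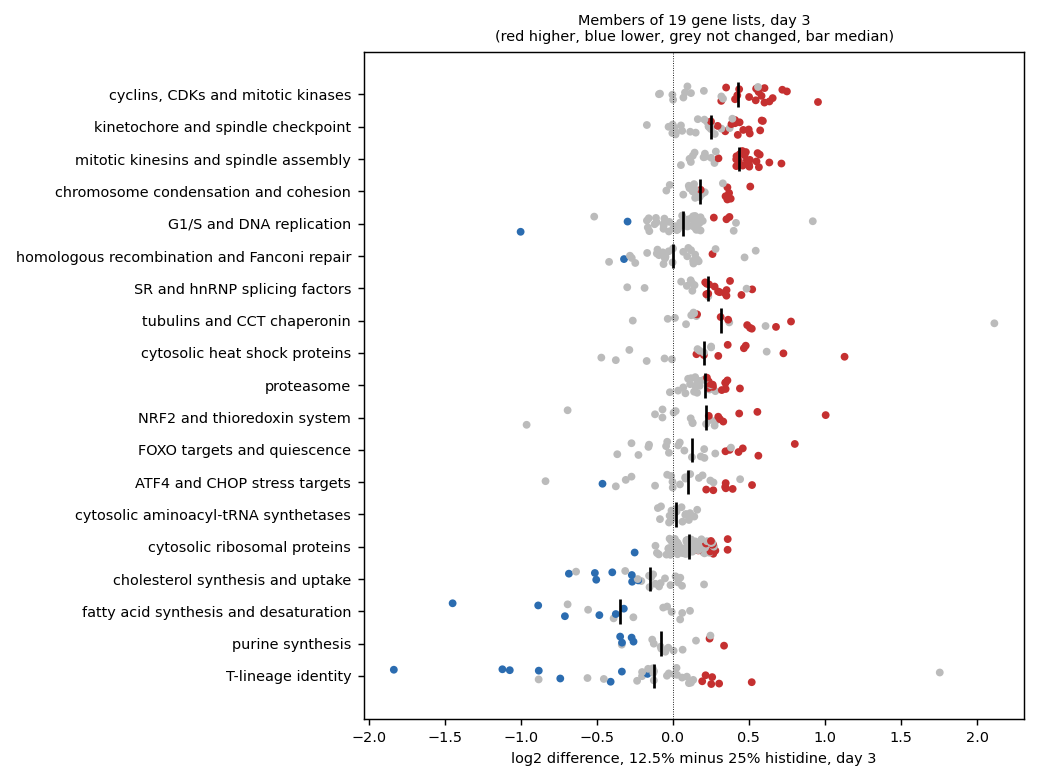
Log2 difference between 12.5% and 25% histidine on day 3 (x axis) for each tested member of 19 gene lists (y axis), with 1 point per gene, red for changed and higher, blue for changed and lower, grey for not changed, and a black bar at the list's median. The 4 mitotic lists at the top have medians of 0.18 to 0.43 and 0 blue points, whereas the G1/S list beneath them has a median of 0.06.

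Set beside the other day 3 levels, the mitotic genes did not follow the histidine dose in 1 direction. Relative to 100% histidine, the median log2 level of the cyclin and mitotic kinase list was 0.08 at 50%, -0.09 at 25%, 0.34 at 12.5% and -1.42 at 0%. For the kinesin and spindle list the 4 values were 0.06, -0.16, 0.26 and -1.44. The other two mitotic lists showed no such dip at 25%: the kinetochore list stood at 0.07, 0.12, 0.37 and -1.13, and the condensation list at 0.04, 0.12, 0.31 and -0.79. CCNB1 averaged 881 at 100% (n = 2), 1148 at 50%, 717 at 25%, 1389.6 at 12.5% and 341 at 0% (n = 3 each). PLK1 averaged 2728, 2896, 3319, 5227 and 1078 in the same order. For both genes the 12.5% mean was the highest of the 5 levels and the 0% mean the lowest. In the comparison of 0% with 50%, which uses none of these 6 libraries, the 4 mitotic lists had median log2 differences of -1.53, -1.27, -1.52 and -0.83, in the order cyclins and kinases, kinetochore, kinesins, and condensation. The G1/S list, with a median of -1.003 in that comparison, had stood at 0.16 above 100% at 25% histidine and 0.27 above it at 12.5%.

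**Figure D3:**
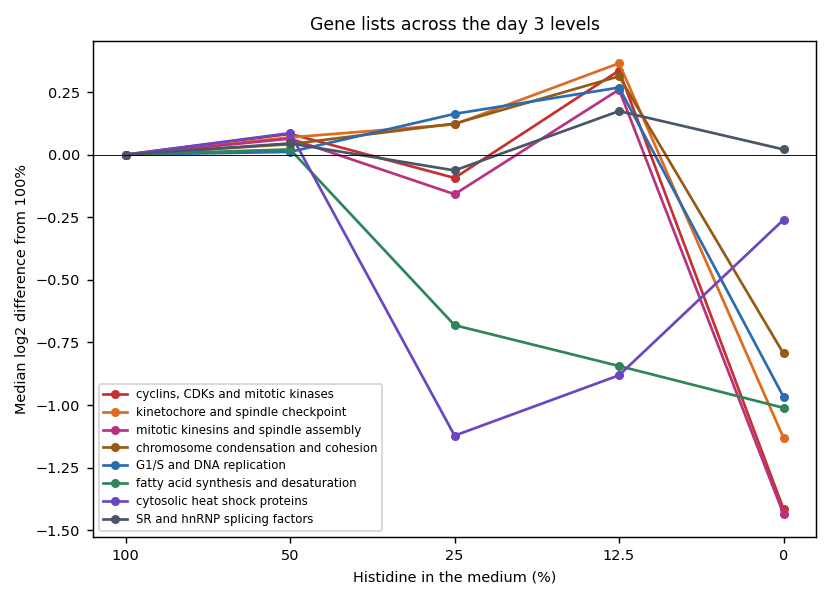
Median log2 difference from 100% histidine on day 3 (y axis) for 8 gene lists at each histidine level in percent (x axis, ordered from 100 to 0, not to scale), with 1 line per list. The cyclin and kinesin lists are at -0.09 and -0.16 at 25%, at 0.34 and 0.26 at 12.5% and at -1.42 and -1.44 at 0%.

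Promoter sequences of the mitotic lists are shown because these genes moved together. The promoters span 250 bases before to 50 bases after the RefSeq start site on GRCh38.p14. They were searched on both strands for 3 motifs: CHR (TTTGAA or TTCGAA), the element bound by MuvB; CCAAT, bound by NF-Y; and E2F (TTCCCGC or TTGGCGC). The 3 kinesin and spindle genes with the smallest p were KIF20A, KIF2C and TPX2, and KIF20A and KIF2C are printed here. CCNB1 and CDC20 were added after their values were seen. Capitals mark motif matches, each line runs 5′ to 3′, and the coordinates are GRCh38.p14.
KIF20A (chr5:138178862-138179161, plus strand): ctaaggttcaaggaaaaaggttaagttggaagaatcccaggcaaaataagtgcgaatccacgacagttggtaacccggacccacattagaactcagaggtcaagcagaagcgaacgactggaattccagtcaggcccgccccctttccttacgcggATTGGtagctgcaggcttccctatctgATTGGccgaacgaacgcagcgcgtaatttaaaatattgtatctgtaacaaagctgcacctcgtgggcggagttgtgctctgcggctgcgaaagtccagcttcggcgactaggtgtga
KIF2C (chr1:44739587-44739886, plus strand): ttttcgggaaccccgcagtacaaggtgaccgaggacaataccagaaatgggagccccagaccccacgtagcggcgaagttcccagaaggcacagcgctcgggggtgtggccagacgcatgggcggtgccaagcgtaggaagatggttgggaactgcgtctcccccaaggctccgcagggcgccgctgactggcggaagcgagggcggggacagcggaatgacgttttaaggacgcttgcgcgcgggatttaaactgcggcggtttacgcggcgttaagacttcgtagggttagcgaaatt
CCNB1 (chr5:69166900-69167199, plus strand): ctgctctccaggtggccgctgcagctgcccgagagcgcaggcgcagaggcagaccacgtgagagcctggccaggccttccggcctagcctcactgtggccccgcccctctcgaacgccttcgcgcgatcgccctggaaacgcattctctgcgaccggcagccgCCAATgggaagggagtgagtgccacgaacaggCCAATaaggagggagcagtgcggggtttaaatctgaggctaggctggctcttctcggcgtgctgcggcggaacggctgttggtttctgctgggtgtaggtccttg
CDC20 (chr1:43358731-43359030, plus strand): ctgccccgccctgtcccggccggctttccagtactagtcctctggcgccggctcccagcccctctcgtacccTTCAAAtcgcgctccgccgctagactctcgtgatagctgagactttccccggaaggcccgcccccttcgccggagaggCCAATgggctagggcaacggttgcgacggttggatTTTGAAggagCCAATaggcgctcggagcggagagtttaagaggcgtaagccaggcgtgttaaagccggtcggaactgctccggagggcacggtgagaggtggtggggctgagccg
The CCNB1 window holds 2 CCAAT matches on the plus strand, which begin 87 and 55 bases before the start site. KIF20A has 2 on the minus strand, read there as ATTGG, which begin 94 and 67 bases before it. CDC20 has 2 CCAAT matches, at 100 and 55 bases before the start, and 2 CHR matches, at 178 and 65 bases before it. The KIF2C window holds no match to the 3 motifs, which says nothing about the factors that bind it.

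Of the 120 mitotic genes, 102 had a promoter in the RefSeq table. A CHR match was present in 64.7% of them, a CCAAT match in 66.7%, both in 47.1% and an E2F match in 25.5%. Over all 27305 promoters of the same length the shares were 16.6%, 35.7%, 6.58% and 9.33%. Among the mitotic genes that rose, 53 of 60 had a promoter, and 79.2% held CHR, 84.9% CCAAT, 71.7% both and 18.9% E2F. Among those that did not pass the test, 49 of 60 had a promoter, and the shares were 49.0%, 46.9%, 20.4% and 32.7%. In the G1/S list 42 of 50 genes had a promoter, 59.5% of which held an E2F match and 7.14% a CHR match. These shares describe letters in a window, and a match is not a bound site.

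Of 36 T-lineage genes, 6 rose and 8 fell, with a median of -0.13. The falls included the recombination genes, and the rises included some T-cell receptor chains. DNTT (chr10:96304396-96338564, plus strand), terminal transferase, which adds untemplated bases at receptor gene joints, was at 1422, 1470.3 and 1521 in the 12.5% libraries and at 5298, 5189 and 5276 in the 25% libraries. The 2 ranges lay far apart, and the fall was 3.57-fold (-1.84 on the log2 scale, SE 0.0498, limma adjusted p = 4.09e-19). DNTT averaged 7591 at 100% and 7681 at 50%, and 772 at 0%, so that its level was lower at each lower histidine level from 50% down. RAG2, a subunit of the recombinase, was at 198, 237 and 171 against 426, 393 and 450.3 (2.1-fold lower, limma adjusted p = 5.7e-07), and its partner RAG1 fell by 0.88 on the log2 scale. PTCRA, the surrogate alpha chain of the pre-T-cell receptor, fell by 1.12, and CD1B, which presents lipid antigens on cortical thymocytes, was at 932, 841 and 805 against 1459.9, 1353 and 1494 (log2 difference -0.74). Its relatives CD1C (-0.56, limma adjusted p = 0.0541) and CD1E (-0.45, limma adjusted p = 0.0994) did not pass the test. The transcription factors MYB (-0.34) and LEF1 (-0.17) also fell.

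In the other direction, TRAC, the constant region of the receptor alpha chain, was at 11512, 10456 and 11374 at 12.5% and 7629, 8016 and 7623 at 25% (log2 difference 0.52, limma adjusted p = 5.7e-07). The CD3 chains CD3E (0.30) and CD3D (0.25), the kinase FYN (0.26) and the adaptor LCP2 (0.21) rose too. The other CD3 complex chains CD3G (0.10, limma adjusted p = 0.482) and CD247 (0.12, limma adjusted p = 0.447) did not pass. The beta chain constant regions split, with TRBC2 at 0.19 and TRBC1 at -0.41, and these near-identical genes share reads that the counting could divide between them. Among the largest rises in genes with a symbol, no overlap and a mean of at least 200 were TRGC2 and TRGV7. TRGC2, a gamma chain constant region, was at 415, 402 and 410.2 against 249.6, 181 and 171 (2.06-fold). The gamma variable segment TRGV7 rose 1.92-fold. TRGC2 and TRGV7 also have near-identical copies. Under total-sum scaling the T-lineage counts became 2 higher and 14 lower, and with library number modulo 8 in the fit 2 higher and 5 lower. NOTCH3, a NOTCH receptor of immature T cells, was at 608, 515 and 657 against 1082, 1240.2 and 1374 (2.07-fold lower). It was the single changed gene of 14 tested NOTCH genes, 7.14% of them, against 2.81% of all tested genes that fell. KIT, the stem cell factor receptor of early progenitors, was at 141, 88.8 and 105 against 255, 208 and 255 (2.17-fold lower), a call lost with library number modulo 8 in the fit.

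**Figure D4:**
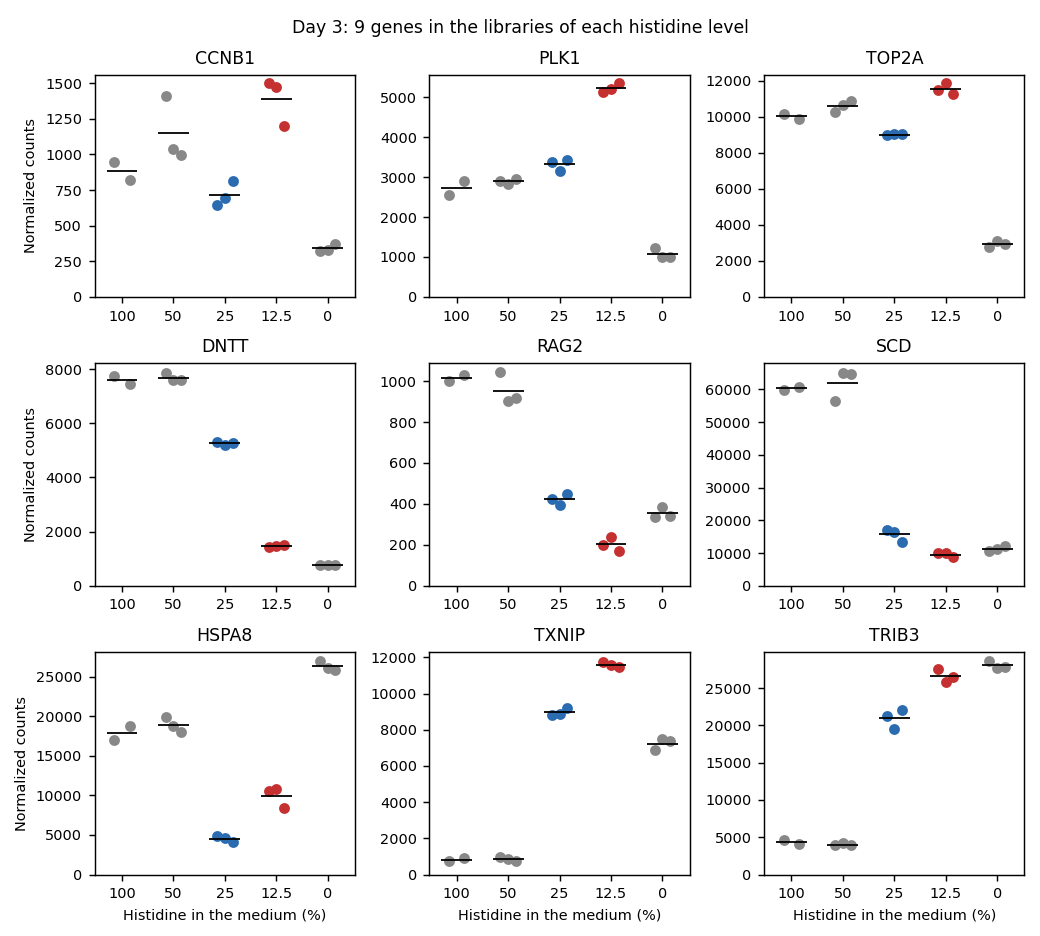
Normalized counts (y axes, each from 0) of 9 genes in every day 3 library at each histidine level in percent (x axes), with 25% in blue, 12.5% in red, other levels in grey and a black bar at the mean. CCNB1, PLK1 and TOP2A are highest at 12.5%, DNTT and RAG2 are lower at 12.5% than at 25%, and HSPA8, TXNIP and TRIB3 are higher at 12.5% than at 25%.

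Cytosolic chaperones were higher at 12.5%. Of 20 heat shock genes 8 rose and 0 fell (median 0.20). HSPA8 (chr11:123057489-123063230, minus strand), the constitutive HSP70 chaperone of the cytosol, was at 10540.1, 10784 and 8457 in the 12.5% libraries and 4852, 4619 and 4101 in the 25% libraries, with a wide gap between them (2.19-fold, SE of the log2 difference 0.0857, limma adjusted p = 3.11e-08). DNAJA1, its J-domain cochaperone, was at 4062, 4020.4 and 3299 against 2376, 2309.8 and 2166 (log2 difference 0.73). STIP1 (0.36), which links HSP70 to HSP90, the HSP90 activator AHSA1 (0.48), the mitochondrial cochaperonin HSPE1 (0.47) and HSPH1 (0.30) rose as well. HSPA8 averaged 17922 at 100%, 18894 at 50%, 4524 at 25% and 26338 at 0%, so its 25% level was the low point of the 5. The median of the heat shock list lay 1.12 below its 100% level at 25% histidine and 0.88 below it at 12.5%, as log2 differences. With total-sum scaling, and likewise after quantile normalization, 5 members rose and 2 fell, and with library number modulo 8 in the fit 4 rose and 0 fell.

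Tubulins, the subunits of microtubules, rose together with 2 subunits of the CCT chaperonin that folds them. In this list 8 of 19 genes rose and 0 fell (median 0.31). TUBB4B was at 3838, 3690.0 and 3930.4 against 2291, 2131 and 2268 (log2 difference 0.78, SE 0.076, limma adjusted p = 3.08e-07), with no overlap. TUBA1C (0.68), TUBB (0.49) and the chaperonin subunit CCT3 (0.31) also rose. Tubulin genes are close copies of each other, so the division of reads among them is uncertain. Of 24 SR and hnRNP splicing factors, which choose exons and carry messages, 14 rose and 0 fell (median 0.23), among them TRA2A (0.52), SRSF3 (0.45), HNRNPM (0.38) and SRSF2 (0.35). Of 31 proteasome subunits 12 rose and 0 fell (median 0.21), with PSMB3 at 0.44, the lid subunit PSMD6 at 0.36 and the core subunit PSMB2 at 0.35. The splicing count was 7 under total-sum scaling and 2 with library number modulo 8 in the fit, and the proteasome count was 5 and 0, with 11 proteasome genes higher at an unadjusted p under 0.05 in the latter.

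Some amino acid stress genes were higher at 12.5%. In the list of 26 targets of ATF4 and CHOP, 7 rose (26.9%, against 5.41% of all tested genes) and 1 fell, with a median of 0.10. Total-sum scaling gave 3 rises and 2 falls. TRIB3, a pseudokinase induced by ATF4 and CHOP, was at 27564, 25784 and 26474 at 12.5% and 21309.5, 19486 and 21993 at 25% (log2 difference 0.35, limma adjusted p = 0.00607). These levels did not overlap, yet the TRIB3 call was lost under total-sum scaling, quantile normalization and library number modulo 8. TRIB3 averaged 4383 at 100% and 4024 at 50%, so both levels compared here stood far above those media, and the 0% mean was 28044. SESN2, a leucine sensor that restrains mTORC1, was at 3581, 3482 and 3321 against 2727, 2741 and 2711 (log2 difference 0.34). CEBPB (0.52), DDIT3 (0.39), which encodes CHOP, and ATF4 itself (0.27) rose, and the mTORC1 inhibitor DDIT4 fell by 0.46. The ATF4 call was lost under quantile normalization and with library number modulo 8 in the fit. The DDIT3 call was lost in 8 of 16 settings, among them both of these, total-sum scaling and leaving out single libraries. For ASNS, asparagine synthetase, the difference was -0.12 (SE 0.0836, limma adjusted p = 0.47). CHAC1, a glutathione-degrading enzyme, stood at 953 against 954 (limma adjusted p = 0.996), and ATF3 at -0.38 (limma adjusted p = 0.0735), where total-sum scaling and a fit to the compared groups alone brought ATF3 past the threshold. With library number modulo 8 in the fit, this list gave 0 rises and 1 fall, with 6 and 2 members at an unadjusted p under 0.05.

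Of the other amino acid genes, 0 of 20 cytosolic aminoacyl-tRNA synthetases changed in limma (median 0.02), and 3 were higher at an unadjusted p under 0.05. HARS1, the histidyl-tRNA synthetase, was at 2107, 1877 and 2061 at 12.5% and 1849, 1803 and 1825 at 25% (log2 difference 0.14, SE 0.0671, limma adjusted p = 0.229). The lowest 12.5% library of HARS1 lay just above the highest 25% library, as 14.9% of tested genes did in that direction. Of 23 amino acid transporters 3 rose and 1 fell (13% and 4.35%, against 5.41% and 2.81% of all tested genes, median 0.11). SLC3A2, the heavy chain of the large neutral amino acid exchanger, was at 24942, 23878 and 25229.9 against 19249, 17487 and 18628 (log2 difference 0.42, limma adjusted p = 1.52e-06), and its light chain SLC7A5, which carries histidine, rose by 0.34. SLC1A5 rose by 0.15 and SLC38A5 fell by 0.45. The cystine importer SLC7A11 was at 0.25 (limma adjusted p = 0.129). Of 14 histidine handling genes 1 rose (7.14%, near the 5.41% of all tested genes), METTL9, a histidine methyltransferase (0.24). The METTL9 call was lost in 8 of 16 settings, among them both scalings, library number modulo 8 and leaving out any of 4 single libraries. Of 16 serine, proline and one-carbon genes, CBS fell by 0.43 and PHGDH rose by 0.23. Each is 6.25% of the list, against 2.81% of all tested genes that fell and 5.41% that rose. The PHGDH call was lost in 7 of 16 settings, among them both scalings and library number modulo 8.

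Lipid synthesis genes were lower at 12.5%. Of 16 genes for fatty acid synthesis and desaturation 6 fell and 0 rose (median -0.35), and of 25 for cholesterol synthesis and uptake 7 fell and 0 rose (median -0.15). SCD, which places the first double bond in stearate, was at 10059.8, 9878 and 8690.2 in the 12.5% libraries and 16993, 16498 and 13511 in the 25% libraries (1.64-fold lower, SE of the log2 difference 0.0793, limma adjusted p = 4.77e-06). The desaturase FADS1 (-0.48), the acetate-activating enzyme ACSS2 (-0.89) and the lipogenic regulator THRSP (-1.45) fell too. Of the cholesterol genes, INSIG1 (-0.51), which retains the SREBP precursors, CYP51A1 (-0.50) and the regulator SREBF2 (-0.40) fell, while HMGCS1, an early cholesterol enzyme, showed -0.09 (SE 0.0699, limma adjusted p = 0.513). SCD averaged 60294 at 100% and 62070.4 at 50%, and 11294 at 0%, so that the 25% and 12.5% levels were both far below those of the 2 richer media. With library number modulo 8 in the fit, 2 of the fatty acid genes and 3 of the cholesterol genes fell. Leaving out 1 library left 4 to 7 and 4 to 8 lower.

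Among 23 FOXO targets and quiescence genes 6 rose and 0 fell (median 0.12). TXNIP, an arrestin that limits glucose uptake, was at 11739, 11572 and 11459 against 8791, 8873 and 9197 (log2 difference 0.37), on means of 823 at 100% and 872 at 50%. Its call was lost under quantile normalization and with library number modulo 8 in the fit. BTG1 (0.80), an antiproliferative regulator of message decay, KLF2 (0.56) and the CDK4/6 inhibitor CDKN2C (0.43) rose. Of 21 genes of the NRF2 and thioredoxin system 7 rose and 0 fell (median 0.22). FTH1, the ferritin heavy chain, was at 36966, 34228 and 35181 in the 12.5% libraries and 24537, 23680.5 and 24148 in the 25% libraries, with no overlap (log2 difference 0.56, SE 0.0543, limma adjusted p = 3.08e-07). PRDX1 (0.44), TXNRD1 (0.33) and OSGIN1 (1.00) rose as well. With library number modulo 8 in the fit, 1 member of the FOXO list and 1 of the NRF2 list rose. FTH1 has many processed copies in the genome that share its sequence.

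Activation and immediate early genes gave 1 rise and 3 falls among 27 (3.7% and 11.1%, against 5.41% and 2.81% of all tested genes, median -0.005). MYC, a growth regulator, was at 2187, 2059 and 2008 against 3262, 2928 and 2795, with no overlap (log2 difference -0.52, limma adjusted p = 3.18e-05), compared with 9679 at 100% and 9848 at 50%. EGR1, an immediate early transcription factor, was at 1088, 1208 and 1162 against 2093, 1978 and 2191 (1.81-fold lower). CD69 fell by 0.83 and JUND rose by 0.44. Purine synthesis gave 2 rises and 4 falls among 17: IMPDH2 (-0.34) and GMPS (-0.26) of the guanine branch and the deaminase ADA (-0.35) fell, and ADSS2 (0.34) of the adenine branch rose. Glycolysis and hypoxia genes gave 6 rises, with pyruvate kinase PKM at 0.43, and 2 falls, ALDOC (-0.48) and the carbonic anhydrase CA9 (-2.78). Under total-sum scaling that became 2 rises and 4 falls.

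Other lists moved in few members, and several of their counts turned with the scaling. Over all tested genes, 5.41% rose and 2.81% fell. Endoplasmic reticulum chaperones gave 4 rises and 1 fall among 20 (median 0.24), with the lumenal HSP70 gene HSPA5 at 0.41 and the degradation factor EDEM1 at -0.51, and total-sum scaling left 0 rises and 1 fall. The HSPA5 call was lost in 10 of 16 settings, 5 of which left out a single library. Of 78 cytosolic ribosomal proteins 10 rose and 1 fell (median 0.11), whereas total-sum scaling gave 2 and 4, quantile normalization 1 and 6, and library number modulo 8 in the fit 0 and 0 (4 and 3 at an unadjusted p under 0.05). Ribosome biogenesis gave 3 rises among 30, PES1 (0.34) among them, and autophagy and lysosome genes 6 among 30, including LAMP1 (0.33). Nuclear-encoded respiratory chain genes gave 3 among 31 and 0 under total-sum scaling. Interferon-stimulated genes (33 tested), p53 and damage response genes (22), BCL2 family genes (16), mitochondrially encoded mRNAs (13) and small nucleolar RNA host genes (18) gave 0 changed members in limma. At an unadjusted p under 0.05 these 5 lists held 3, 2, 5, 0 and 4 genes, in that order, against 4843 of all 22994 tested genes. The p53 target CDKN1A was at -0.01 (SE 0.258, limma adjusted p = 0.989). Whether p53 works in these cells was not tested, so the p53 list and CDKN1A do not speak to a p53 response.

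Among genes with a symbol, no overlap and a mean of at least 200, the largest rises outside these lists were led by CHGB. This gene, chromogranin B of secretory granules, was at 419.9, 439 and 410.3 against 147, 138 and 159.6 (2.84-fold, limma adjusted p = 0.00356). CHGB averaged 26.1 at 100%, 19.9 at 50% and 649 at 0%, so its mean was higher at each lower level below 50%. UBE2S, which extends ubiquitin chains for the anaphase-promoting complex, was at 8339, 9339.8 and 10512 against 3901, 3939.9 and 5288 (2.16-fold). KLHDC7B (1.97-fold), QRICH2 (1.91-fold) and HGH1 (1.98-fold) followed. The calls of these 5 genes were lost with library number modulo 8 in the fit. ADI1, a methionine salvage enzyme, was at 1851, 1988 and 1944 against 1112, 1067 and 1074 (log2 difference 0.83, SE 0.07, limma adjusted p = 3.83e-08), and kept its call under the 16 settings tried. Others with the smallest p among rises were the histone variant H2AZ2 (0.63), the membrane-shaping protein ARL6IP1 (0.60) and the splicing factor PRPF6 (0.59).

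Among the falls with the smallest p, CHI3L2, a chitinase-like protein, was at 1742, 1633 and 1709 in the 12.5% libraries and 3919, 3237 and 3965 in the 25% libraries (2.18-fold lower, limma adjusted p = 1.13e-10), on means of 17599 at 100% and 1439 at 0%. ALDH1A2, which makes retinoic acid, was at 2970.4, 3109.8 and 2897 against 6378, 5683 and 6105 (2.02-fold lower). The GDNF receptor GFRA1 (-0.89), the formin DAAM2 (-0.80), the mitochondrial carrier UCP2 (-0.71) and AEBP1 (-0.47) fell too. These 6 genes kept their calls under the 16 settings tried. The noncoding RNA LINC01237 (-1.66), the scaffold CNKSR3 (-1.39) and the antisense RNA ARPP21-AS1 (-1.12) had larger falls, all lost with library number modulo 8 in the fit. Whether the counting used strand is not given in the sources used here, so reads of ARPP21-AS1 and of its partner ARPP21 may be mixed.

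Genes that are not typical of T cells were among the largest falls in genes with a mean of at least 200. APOE, an apolipoprotein, was at 211, 98.8 and 104 at 12.5% and 479, 640.3 and 375 at 25% (3.74-fold lower), the cartilage matrix protein COMP at 82.6, 71.5 and 37.1 against 314, 292 and 119 (3.64-fold), the adipocyte fatty acid carrier FABP4 at 169, 160.4 and 270.0 against 592, 500.0 and 413 (2.55-fold) and the matrix protein DPT at 114, 59.2 and 95.8 against 220.3, 222 and 217 (2.52-fold). The 4 calls were lost with library number modulo 8 in the fit and when 1 or more of the single libraries was left out. Libraries 17 to 19, each 8 numbers after a 12.5% library, came from 100% and 50% histidine on day 6. They held APOE at 77.68 to 183.6, COMP at 37.57 to 113.4, FABP4 at 159 to 234.4 and DPT at 53.73 to 118. Libraries 14 to 16, each 8 after a 25% library, came from 0% on day 3 and 100% on day 6. In the same order, they held 184.3 to 541.6, 97.93 to 250.4, 303.5 to 503.5 and 132.2 to 218.3. The part of this numbering in these falls was not tested. The summed level of 12 fibroblast and matrix markers was 2941 to 9295 at 12.5% and 6484 to 12480 at 25%, with none of the 12 at 0 in all 6 libraries. Of the 12, 1 was lower, THY1 (-0.53), which cells of the T lineage can also express. The THY1 call was lost in 6 of 16 settings, among them library number modulo 8 and leaving out single libraries. The summed muscle markers were at 286.9 to 312.6 against 440.3 to 465.1, with 0 of 8 tested members changed and 1 lower at an unadjusted p under 0.05. Most of this sum was 1 gene, TTN, at 245 to 258.5 against 339.8 to 429.7. The part of the fibroblast and muscle markers in the result was not tested. Erythroid markers summed to 199 to 3838 at 12.5% and 230.5 to 376.2 at 25%, with 0 of 5 tested changed, also at an unadjusted p under 0.05. Replicate 3 at 12.5% held 1689 counts of the globin gene HBA2, and the other two 12.5% libraries held 74.44 and 97.69. B-cell markers (739 to 780 against 666.2 to 828.4), myeloid markers (201.2 to 301 against 198 to 262.9) and epithelial markers (341 to 582 against 377.8 to 456.5) overlapped between the levels, with 1 changed member in all, KRT1 (0.83). The KRT1 call was lost in 9 of 16 settings, among them library number modulo 8 and leaving out single libraries.

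The same step in histidine was measured on day 6 with 3 libraries at 25% and 2 at 12.5%, none of which enter the day 3 comparison. There 201 genes (0.874%) changed in limma, 47 higher (0.204%) and 154 lower (0.67%). Replicate 2 at 25% on day 6 held summed muscle markers of 42290, against at most 717.5 in any other library of the series. Its level of the muscle gene MYH7 was 18210, against at most 67.54 elsewhere. That library also enters the difference between days. Leaving out 1 of the day 6 libraries at a time gave 74 to 322 changed genes on day 6. Of the 1243 genes higher on day 3, 933 (75.1%) also had a positive difference on day 6, but the median log2 difference was 0.08 on day 6 against 0.34 on day 3. Of the 646 lower genes, 528 (81.7%) were negative on day 6, with a median of -0.28 against -0.62. Both sets were picked by the day 3 test, which inflates their day 3 sizes, so these medians do not compare the 2 days. The day 6 median over all tested genes was 5e-04, and their share with the same sign on both days was not computed. On division by 8, the library numbers leave 6 and 7 at 25% on both days and 1 at 12.5% on both days. The remainder 0 falls at 25% on day 3 and at 12.5% on day 6. The part of this numbering in the shared direction was not tested. The 2 days shared 32 higher genes, 2.57% of the day 3 list and 68.1% of the day 6 list, and 83 lower genes, 12.8% and 53.9%. The step itself differed between days for 102 genes (0.444%), with 85 (0.37%) more positive on day 3 and 17 (0.0739%) more negative, a count that fell to 0 with library number modulo 8 in the fit, where 1455 genes had an unadjusted p under 0.05 against 2527 without the term.

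The mitotic genes were prominent among those whose step differed between days, making up 31 of the 102. Of the 60 mitotic genes that rose on day 3, 42 had a difference below 0 on day 6, and 0 members of the 4 lists changed on day 6 in limma (1 higher and 13 lower at an unadjusted p under 0.05). The step differed between days for 9 of the 30 cyclin and kinase genes, 5 of the 37 kinetochore genes, 14 of the 32 kinesin genes and 3 of the 21 condensation genes, each more positive on day 3. CCNB1 averaged 1281 at 12.5% (n = 2) and 1189 at 25% (n = 3) on day 6, a difference of 0.11 on the log2 scale, and its step was larger on day 3 by 0.84 (SE 0.176, limma adjusted p = 0.0233). PLK1 averaged 4317 and 5012 on day 6 (difference between the steps 0.87, limma adjusted p = 0.000156). HSPA8, with a day 6 difference of 0.28, and TXNIP, at -0.43, also had smaller or opposite steps on day 6. FTH1, in contrast, gave 0.57 on day 6 (limma adjusted p = 3.45e-06), and CD1B -0.76, close to their day 3 values of 0.56 and -0.74. DNTT fell by 1.84 on day 3 and stood at -1.56 on day 6 (limma adjusted p = 3.67e-16). EGR1 was lower at 12.5% on day 3 and higher on day 6 (0.85, limma adjusted p = 0.0247). Of the lipid lists, 4 fatty acid and 4 cholesterol genes fell on day 6, and none differed in step between days.

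**Figure D5:**
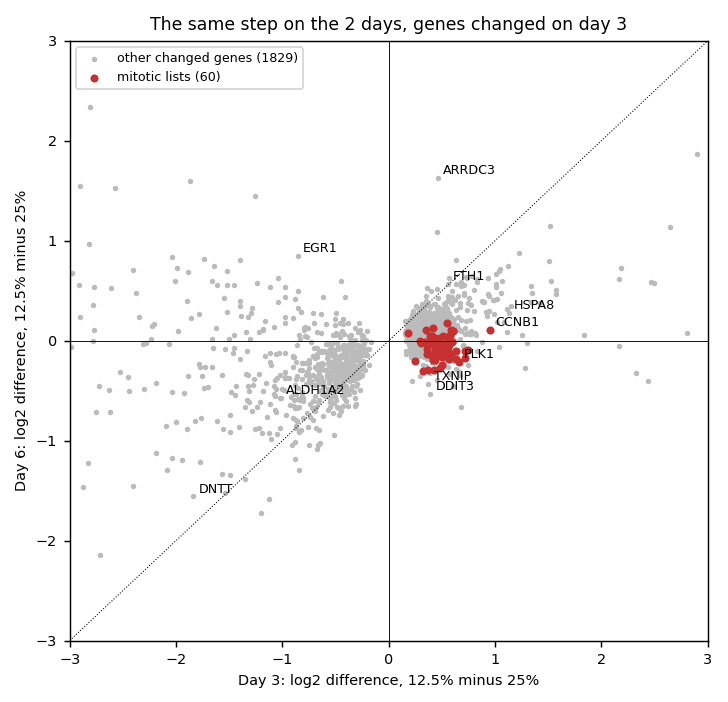
Log2 difference between 12.5% and 25% histidine on day 6 (y axis) against that on day 3 (x axis) for the 1889 genes changed on day 3, with the 60 mitotic genes in red, the others in grey and a dotted line where both days are equal. The red points lie right of 0 on day 3 and 42 of them below 0 on day 6, and 19 genes fall outside the axes.

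Against the full withdrawal measured on the same day, the direction of the step was partly shared. The comparison of 0% with 50% changed 8289 genes (36%), from libraries that this step does not use. Of the 1243 genes higher at 12.5%, 695 (55.9%) were also higher at 0% than at 50% and 223 (17.9%) were lower, against 16.7% and 19.3% of all tested genes. Of the 646 lower genes, 400 (61.9%) were lower there and 39 (6.04%) higher. Of the 60 mitotic genes higher at 12.5%, 59 were lower at 0% than at 50% and 0 were higher: CCNB1 had a log2 difference of -1.73 at 0% against 50% and PLK1 of -1.43, while FTH1 (0.82), CHGB (4.97) and DNTT (-3.31) kept the direction of the 12.5% step. Among genes with a mean of at least 200, those that rose had shorter annotated transcripts (median 3220.5 bases) and those that fell longer ones (4189.5) than all such genes (3794), with GC contents of 52%, 49.9% and 48%.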

How the data were processed

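Strand-specific libraries were made from total RNA, per the labels' protocols. The authors deposited 1 table of normalized counts for 36755 genes in 25 libraries, treated here as a signal in normalized read units. The submitters' processing notes name FastQC 0.11.9, kallisto 0.50.1, DESeq2 1.44.0 and GRCh38; the annotation and strand setting: not given in the sources used here. Values were not whole multiples of 1 read (55.2% to 74.7% whole within 0.05 of a read), so no count test was run. One read was worth 0.785 to 1.29, and 0 columns were left unused.

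The 22994 genes that reached 10 in 2 or more of the 25 libraries were fitted as log2(value + 1) in limma 3.58.1 (R 4.3.3, statmod 1.5.0), with a mean for each of 9 groups, trended and robust empirical Bayes moderation, and Benjamini-Hochberg adjustment over all genes. The contrasts were 12.5% against 25% on day 3, the same on day 6, their difference, and 0% against 50% on day 3. The procedure was tested on simulated data. Coordinates and transcript lengths came from GENCODE 29.

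The members and the 42 gene lists were chosen with earlier results of these data known. Named genes were the 10 largest rises and falls and the 6 of each with the smallest p (changed, no overlap, mean of at least 200), the 3 changed members of each list with the smallest p, 14 fixed genes, and the 4 largest differences between days in each direction; members of a list named with a log2 difference alone beyond these were picked as examples after their values were seen. Alternatives covered pseudocount, filter, scaling, moderation, groups fitted, library number modulo 8, a replicate block and leaving out each library. Some genes that this rule names are not reported here.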

Additional observations from a re-analysis of the deposited data

Results flagged for a closer look

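For 28 of the 124 named genes the step from 25% to 12.5% histidine differed between day 3 and day 6 in limma's test of the difference. Over all tested genes the share was 0.444%. Some genes were named by this same test and others by their day 3 step, so the count of 28 is partly set by the naming. The values are the day 3 log2 difference minus the day 6 one, and the number of genes called by this test over the whole table, 102, fell to 0 with library number modulo 8 in the fit. Among mitotic and chromosome genes the day 3 step was the more positive for PIMREG (0.93), KIF20A (0.88), PLK1 (0.87), CDC20 (0.85), CCNB1 (0.84), KIF2C (0.75), CDCA8 (0.73), BIRC5 (0.60), CENPF (0.60), TPX2 (0.50), TOP2A (0.49), CDCA5 (0.46) and NCAPD2 (0.37). The same held for the chaperones HSPA8 (0.85) and DNAJA1 (0.53) and for the tubulins TUBB4B (0.71) and TUBA1C (0.58). It held too for ARL6IP1 (0.58) and PRPF6 (0.53). The zinc finger gene ZNF671 (1.34), the CHOP gene DDIT3 (0.92) and TXNIP (0.80) rose on day 3, by 0.68, 0.39 and 0.37, and stood at -0.67, -0.53 and -0.43 on day 6. The difference was negative for ALDH1A2 (-0.44) and UCP2 (-0.55), which fell further on day 3. ARRDC3 (-1.17) rose by 0.46 on day 3 and stood at 1.63 on day 6. The glutathione transferase gene MGST1 (-1.18), ARPP21-AS1 (-1.65) and EGR1 (-1.71) fell on day 3, by 0.86, 1.12 and 0.86, and stood at 0.32, 0.53 and 0.85 on day 6.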

How the results depend on the processing

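None of the called named genes reversed direction under the settings tried, while CDKN1A and CHAC1, which were not called, changed sign. For 12.5% against 25% on day 3, total-sum scaling gave 583 genes higher and 1066 lower, and quantile normalization 1232 changed, 616 of them higher. Library number modulo 8 as a term gave 238 (156 higher, 82 lower), and also 32 for day 6 and 0 for the difference between days. It leaves fewer residual degrees of freedom, and each residue holds few libraries, so the level and the number are partly confounded. Fitting the compared groups alone gave 12 for day 6 and 60 for the difference between days, and dropping the trend and robust moderation gave 113 and 32. The cause of these shifts was not tested. Leaving out 1 library gave 1135 (without replicate 2 of 25%) to 1451 changed genes on day 3, 737 to 993 higher and 395 to 513 lower. It gave 74 to 322 on day 6, the highest without replicate 3 of 25%, 33 to 238 for the difference between days, and 7227 to 7612 for 0% against 50%. Same-numbered libraries correlated at 0.1, 0.031 and 0.072, and each 12.5% library correlated best with its own number. Pairs with unlike numbers lay between -0.085 and 0.008. Whether same-numbered libraries share more than the number was not tested. A replicate block gave 1789 changed genes (1191 higher, 598 lower), of which 1163 and 574 were called without it. With library number modulo 8 in the fit, 63 named genes lost their call. Depth limits low genes, since 1 read was worth about 1 unit.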
